A study of Rattus norvegicus with 10 samples.

Results

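The comparison set a diet rich in coconut fat, which is mostly saturated, against a diet rich in olive oil, which is mostly monounsaturated, in rat liver. It used the 2 arrays labelled coconut fat and the 2 labelled olive oil, 4 of the 10 arrays of the series, with every probe set that is not a control. Both groups were male Wistar rats, an outbred laboratory strain, fed 42% of their energy as fat. After 12 weeks and a night without food, a piece of 1 liver lobe was clamp-frozen. The other 6 arrays came from rats on lard, fish oil (cod liver oil in the design text) or standard chow, 2 each, after the same 12 weeks and the same fast. The fat share of chow is not given in the sources used here, so in values beside chow the kind of fat and how much of it was eaten cannot be told apart. The labels do not say whether RNA of several animals was pooled, and p-values measure only the spread between these samples.

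The liver takes up dietary fatty acids, burns them in mitochondria and peroxisomes, or stores and exports them as triglyceride. It also makes new fatty acids and cholesterol under the control of the SREBP and LXR transcription factors, and polyunsaturated fatty acids are known to restrain the first of these programmes. In a fast, the nuclear receptor PPAR-alpha turns on genes of fatty acid oxidation, while breakdown of amino acids supplies carbon for glucose. Coconut fat is known for its medium-chain saturated acids, which enter mitochondria with little help from the carnitine shuttle.

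Each of the 4 arrays gave 1 MAS5 signal per probe set. Their median signals were 29.0 and 29.2 with coconut fat and 31.9 and 30.6 with olive oil. Across probe sets, which are not independent replicates, the arrays correlated at r = 0.948 within coconut fat, 0.934 within olive oil and 0.934 to 0.944 between both diets. All 8 hepatocyte marker genes measured were bright, with albumin at 12180.3 and 11995.7 on the coconut fat arrays and at 13140.6 and 10106.5 on the olive oil arrays. The list had a median log2 difference of -0.01 between the diets, where a log2 difference is coconut fat minus olive oil throughout, on the log2(signal + 3.1) scale, which understates the change of dim genes. The 2 arrays of a diet limit how precise any value can be, and each SE comes from a spread shared by all 5 diets.

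Of 18625 probe sets bright enough to be tested, 2 had a limma adjusted p under 0.05, or 0.0107% of them, and both were higher with coconut fat. They detect Gpt, the alanine aminotransferase that moves nitrogen between alanine and glutamate, and Plcb3, a phospholipase C that G-protein-coupled receptors activate. At an unadjusted p under 0.05 there were 1218 probe sets, of which 585 were higher with coconut fat (3.14% of those tested) and 633 lower (3.4%). On 16.2% of the probe sets both coconut fat arrays lay above both olive oil arrays, and on 20.1% both lay below. The median difference over all probe sets tested was -0.03, and 46.6% lay above 0. With the arrays shifted to a common 75th percentile instead, 783 were higher and 459 lower at an unadjusted p under 0.05, so neither direction was the larger under every scaling.

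**Figure D1:**
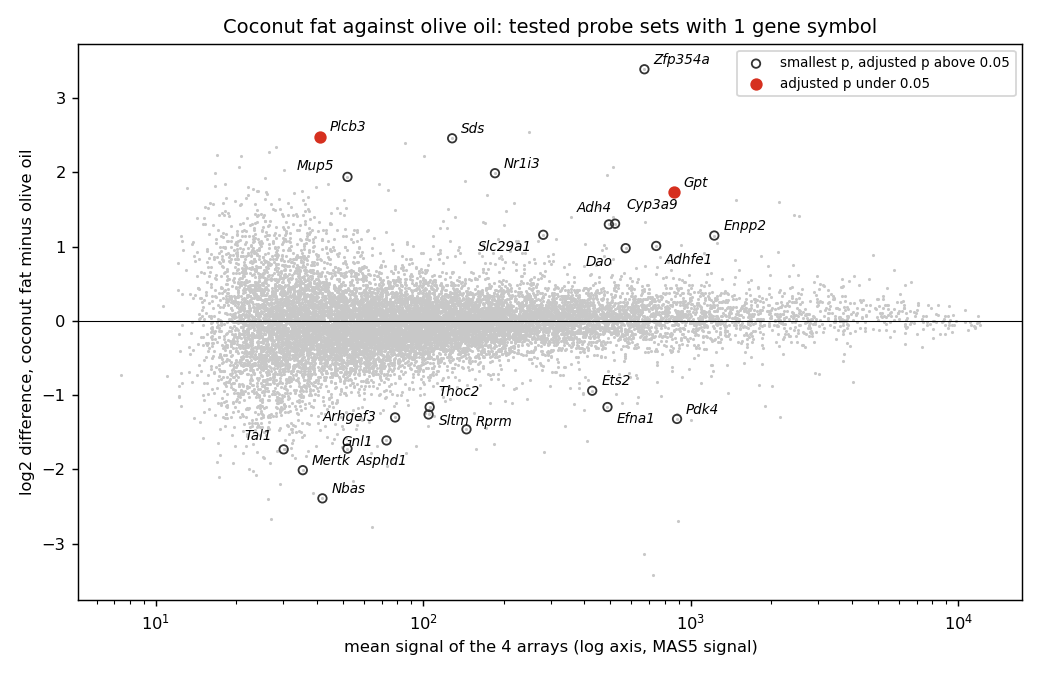
Log2 difference between coconut fat and olive oil (vertical axis) against the mean signal of the 4 arrays (horizontal log axis) for tested probe sets with 1 gene symbol. Filled red points mark Gpt and Plcb3, which passed at an adjusted p of 0.05, and open circles mark the 22 genes with the next smallest p-values among those without overlap of the arrays; dim probe sets on the left scatter more widely around 0.

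Gpt had signals of 1326.1 and 1326.5 on the coconut fat arrays and of 346.3 and 459.4 on the olive oil arrays. It read 2003.5 and 1957.9 with chow, 812.9 and 847.3 with lard and 990.0 and 689.6 with fish oil. The olive oil arrays were thus the lowest of all 10 and the coconut fat arrays the highest outside chow, with no overlap. Gpt rose 3.31-fold from olive oil to coconut fat (log2 difference 1.73, SE 0.19, 95% interval 1.32 to 2.13, limma adjusted p = 0.0286). Against chow the log2 difference was -2.3 with olive oil (limma adjusted p = 0.00156) and -0.58 with coconut fat (adjusted p = 0.785). These comparisons share arrays with one another and are not independent. The log2 difference lay between 1.52 and 1.93 over all 20 alternatives. The call depended on single arrays: limma's adjusted p was 0.0979 with the first olive oil array left out, 0.0939 or 0.312 with either coconut fat array left out, 0.116 with either lard array left out, and 0.0718 or 0.0732 with either chow array left out.

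Plcb3 had signals of 58.8 and 85.7 with coconut fat and of 9.2 and 11.3 with olive oil. The lard arrays read 58.1 and 66.1, the fish oil arrays 91.1 and 88.9 and the chow arrays 57.0 and 85.4. A signal of 12.8, the brightest reading of a control for a bacterial gene (trp) that no step adds, was taken as the bound of the background. Both olive oil arrays were under it, and the 8 other arrays were above it. Plcb3 was at least 4.66-fold higher with coconut fat than with olive oil (log2 difference 2.48, SE 0.3, limma adjusted p = 0.0497). This bound was 5.58 and 3.89 when the first or the second coconut fat array was dropped. Its call did not outlast the loss of any 1 of the 10 arrays, with limma adjusted p-values from 0.0542 (second olive oil array left out) to 0.406 (second coconut fat array left out). Against chow the log2 difference was 0.02 with coconut fat (adjusted p = 0.996). Chow was at least 4.59-fold higher than olive oil for Plcb3 (limma adjusted p = 0.0218), and this bound was 5.57 with the first chow array left out and 3.78 with the second left out.

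The stretch before the start of Plcb3 is shown because it is the called gene with a RefSeq promoter entry used here (assembly GRCr8), and that of Fdps, a synthase of cholesterol precursors, stands for the cholesterol genes described further on. Plcb3 lies on the minus strand, with its upstream stretch at chr1:213589436-213589685, and Fdps also on the minus strand, at chr2:176804817-176805066. Sequences run 5′ to 3′ on the strand of the gene, and capitals mark the GC box (GGGCGG) and the CCAAT box (CCAAT) on either strand.
Plcb3: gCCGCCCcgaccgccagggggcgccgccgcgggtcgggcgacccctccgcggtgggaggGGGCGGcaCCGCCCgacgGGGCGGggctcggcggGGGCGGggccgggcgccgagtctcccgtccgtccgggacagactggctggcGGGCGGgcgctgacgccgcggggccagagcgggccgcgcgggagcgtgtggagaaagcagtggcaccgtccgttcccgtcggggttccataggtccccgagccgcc
Fdps: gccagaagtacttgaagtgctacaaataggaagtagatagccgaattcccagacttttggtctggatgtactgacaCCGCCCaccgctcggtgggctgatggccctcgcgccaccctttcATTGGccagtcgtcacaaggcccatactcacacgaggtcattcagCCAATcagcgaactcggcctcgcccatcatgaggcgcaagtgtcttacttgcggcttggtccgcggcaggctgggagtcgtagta
The stretch of Plcb3 held 6 GC boxes and 0 CCAAT boxes, and that of Fdps 1 GC box and 2 CCAAT boxes. Of 33469 promoters of the same length, 30.5% held GGGCGG and 34% held CCAAT. These shares count every promoter entry, of measured genes or not, while the list counts that follow use 1 entry for each measured gene. Among the cholesterol synthesis genes measured, 12 of 14 with an entry held GGGCGG and 11 of 14 CCAAT. Lists that differed the other way between the diets also held GGGCGG. It was in 12 of 17 promoters of mitochondrial fatty acid oxidation and 12 of 27 of amino acid breakdown. CCAAT was in 4 of 17 of the former (23.5%, under the share of all promoters) and in 16 of 27 of the latter. For fatty acid synthesis the counts were 7 and 6 of 10. Such matches describe letters and are not binding sites.

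Beyond these called genes, 10 genes with higher and 12 with lower signal were taken by the smallest p-value among genes whose coconut fat and olive oil arrays did not overlap. None of these 22 passed the adjusted test, with adjusted p-values from 0.17 to 0.464, and their values are given as measurements. Zfp354a, a zinc finger transcriptional repressor, had the widest gap among them. It read 1204.7 and 1250.2 with coconut fat against 112.2 and 115.7 with olive oil (log2 difference 3.39, SE 0.63, adjusted p = 0.245). The 6 other arrays all lay between these groups, with 764.4 and 467.2 on the lard arrays, 119.9 and 700.4 on the fish oil arrays and 453.5 and 201.6 on the chow arrays. A fit of the coconut fat and olive oil arrays alone called Zfp354a and no other probe set (limma adjusted p = 0.000725), and so did leaving out either fish oil array, beside Gpt (adjusted p = 0.0201 and 0.021 for Zfp354a).

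Sds, the serine dehydratase that turns serine into pyruvate, had signals of 296.5 and 139.8 with coconut fat and of 20.9 and 55.5 with olive oil. Chow gave 693.9 and 875.7, lard 80.7 and 40.9 and fish oil 129.6 and 199.7. Coconut fat thus lay between olive oil and chow without overlap of either (log2 difference to olive oil 2.46, SE 0.47, limma adjusted p = 0.245). Nr1i3, the constitutive androstane receptor that switches on genes of drug metabolism, read 207.7 and 393.8 with coconut fat and 74.3 and 65.3 with olive oil (log2 difference 1.99, SE 0.35, limma adjusted p = 0.238). The olive oil arrays were the lowest of the 10 arrays for Nr1i3, with lard at 227.2 and 220.8, fish oil at 435.8 and 432.3 and chow at 294.2 and 131.4. Cyp3a9, a cytochrome P450, read 656.8 and 812.5 with coconut fat and 404.2 and 211.6 with olive oil, while both chow arrays were far higher at 2454.3 and 2309.2 (log2 difference to olive oil 1.31, SE 0.26, limma adjusted p = 0.326).

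Enpp2 encodes autotaxin, the secreted enzyme that makes lysophosphatidic acid. Its signals were 1495.5 and 1884.5 with coconut fat and 826.1 and 691.0 with olive oil (log2 difference 1.15, SE 0.17, limma adjusted p = 0.17). Slc29a1, a nucleoside transporter, read 379.5 and 398.1 with coconut fat, above all 8 other arrays, and 169.2 and 176.3 with olive oil (log2 difference 1.16, limma adjusted p = 0.189). Both alcohol dehydrogenase relatives in the set lay higher with coconut fat, Adh4 by 1.3 and Adhfe1 by 1.01 on the log2 scale, and the second Adhfe1 probe set by 0.62. Dao, the D-amino acid oxidase of peroxisomes, read 726.1 and 791.8 with coconut fat and 406.0 and 359.2 with olive oil. Mup5, of the major urinary protein family, differed by 1.94 on 1 probe set and by 1.26 and 0.32 on the other 2, and near-identical family members may bind the same probes. The difference of 0.32 was on the brightest of them, with means of 2209 with coconut fat and 1783 with olive oil, against 83.2 and 20.9 on the first.

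**Figure D2:**
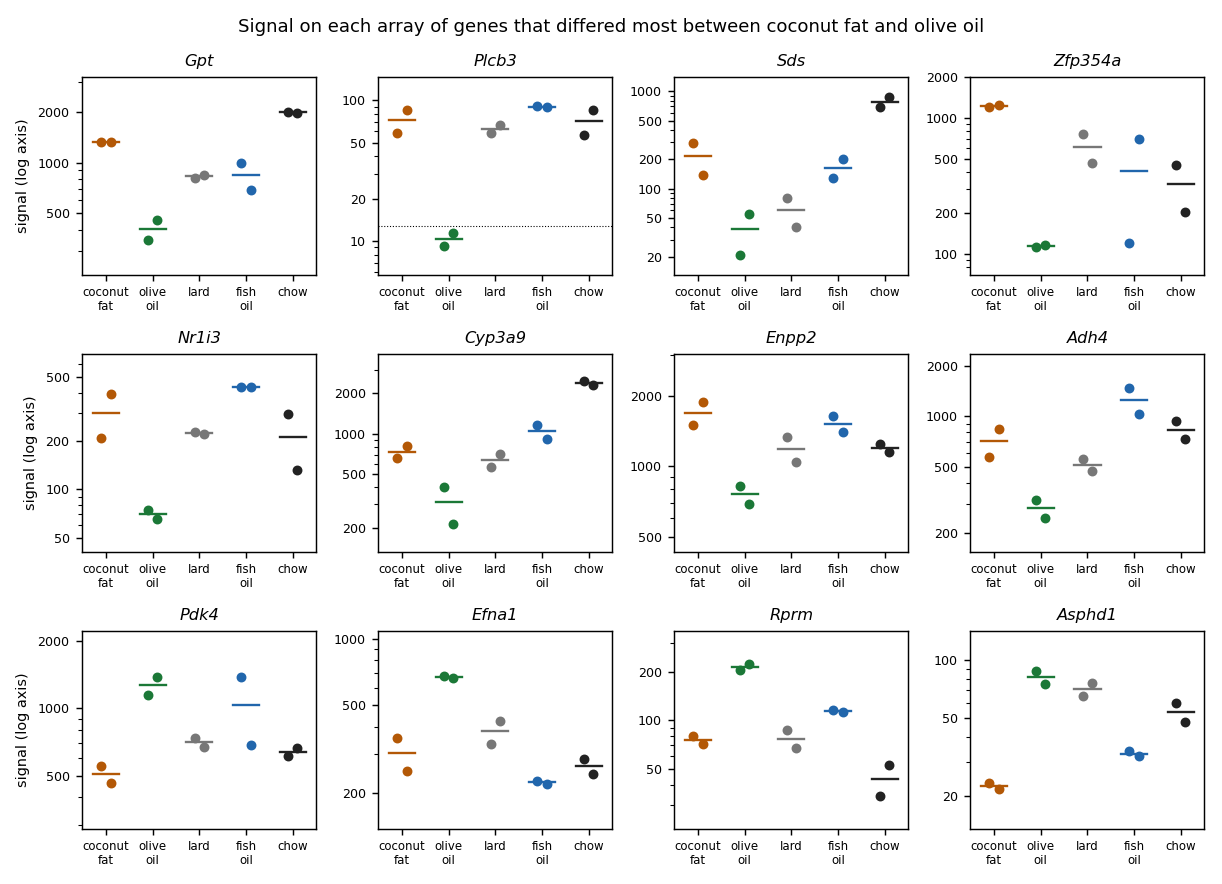
Signal (log axis) on each of the 10 arrays for 12 genes, by diet, with 1 point an array and a bar at the mean of each diet; the dotted line is the background bound of 12.8. Olive oil stood at the low end for Gpt, Plcb3, Sds and Nr1i3 and at the high end for Efna1 and Rprm, while coconut fat stood lowest for Asphd1.

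Among the 12 genes with lower signal, Pdk4, the kinase that shuts off pyruvate dehydrogenase and spares glucose, was among the brightest. It read 550.1 and 464.4 with coconut fat, 1152.7 and 1386.1 with olive oil and 614.3 and 668.1 with chow (log2 difference to olive oil -1.32, SE 0.26, limma adjusted p = 0.326). Its second probe set gave -1.2. Efna1, an ephrin ligand on the cell surface, had signals of 355.7 and 250.8 with coconut fat and of 681.1 and 664.9 with olive oil, where it was the highest of all diets (log2 difference -1.16, second probe set -0.83). Rprm, an inhibitor of cell cycle progression, read 80.0 and 71.7 with coconut fat, 205.2 and 223.1 with olive oil and 34.3 and 53.0 with chow (log2 difference to olive oil -1.46, limma adjusted p = 0.228). Asphd1, by contrast, had its lowest signals of all 10 arrays with coconut fat, at 23.4 and 21.7, against 88.1 and 75 with olive oil (log2 difference -1.72, limma adjusted p = 0.189). Ets2, a transcription factor, differed by -0.94.

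Of the other 7 of these lower genes, 3 were near or under the background bound with coconut fat. Nbas, a factor of transport between Golgi and endoplasmic reticulum, read 5.5 and 20 with coconut fat and 78.3 and 64.0 with olive oil (log2 difference -2.39). Tal1, a transcription factor of blood and endothelial cells, read 9.1 and 16.0 against 45.8 and 49.3 (-1.73). Mertk, a receptor through which macrophages take up dying cells, read 11.4 and 12.9 with coconut fat and 66.7 and 50.7 with olive oil (-2.01), but a brighter probe set of Mertk gave 0.15. Gnl1, Arhgef3, Sltm and Thoc2 differed by -1.61, -1.3, -1.26 and -1.16. The other probe sets of Sltm gave -0.54 and -0.04 and those of Thoc2 -0.25, -0.68 and -0.51, so both genes' sizes depend on the probe set.

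No probe set passed in coconut fat against chow (0%, smallest limma adjusted p = 0.141, with 1012 at an unadjusted p under 0.05), and 5 passed in olive oil against chow (0.0268%, with 1561 unadjusted). Those 5 were on Gpt, Cyp3a9, Sds, Rprm and Plcb3, and 3 to 23 passed when single arrays were left out. With the first olive oil array left out, the adjusted p was 0.0559 for Sds, 0.0616 for Rprm and 0.0886 for Plcb3, and with the first chow array left out it was 0.0681 for each of these 3. Cyp3a9 differed from chow by -3.01 with olive oil (limma adjusted p = 0.00173) and by -1.7 with coconut fat (adjusted p = 0.168). Sds differed from chow by -4.38 with olive oil (limma adjusted p = 0.00843) and by -1.92 with coconut fat (adjusted p = 0.592). Rprm differed from chow by 2.24 with olive oil (limma adjusted p = 0.00843) and by 0.78 with coconut fat (adjusted p = 0.785). The olive oil and coconut fat comparisons use the same chow arrays, and each shares its diet arrays with the direct comparison.

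Gene lists were then read on the brightest probe set of each gene. Over 10470 genes, 48.4% lay above 0 and the median difference was -0.01, against which the counts of direction and the medians that follow can be read. For counts at an unadjusted p under 0.05 the shares over all probe sets tested were 3.14% higher and 3.4% lower, and for arrays without overlap 16.2% higher and 20.1% lower. Of the 99 probe sets named by rule, 38 moved by more than 1.5 times in log2 difference when 1 of the 4 arrays was left out. Most of them were list members, and 1 (Cyp3a9, 0.85 without the second olive oil array) was of the 24 with the smallest p-values. Those 24 were chosen by p-value and lack of overlap on these same arrays, which favours values that move little, so this is no measure of their stability. Apart from Gpt, no member of any list passed the adjusted test.

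Fatty acid synthesis was the list farthest below 0 among the pathway lists. All 13 of its measured genes had lower mean log2 signal with coconut fat than with olive oil, with a median difference of -1.11. Of these, 5 had an unadjusted p under 0.05, 8 had both coconut fat arrays below both olive oil arrays, and 0 of 13 passed limma's adjusted test. Acacb, the mitochondrial acetyl-CoA carboxylase, read 33.8 and 26.1 with coconut fat and 84.6 and 81.9 with olive oil (log2 difference -1.4, SE 0.56). Pgd, which makes NADPH in the pentose phosphate pathway, read 429.4 and 261.0 against 531.4 and 989.1 (-1.11, SE 0.45). Tkt, the transketolase of the same pathway, read 700.2 and 406.6 against 926.7 and 958.8 (-0.82, SE 0.3). Mid1ip1, which activates acetyl-CoA carboxylase, read 561.3 and 604.3 against 655.0 and 1181.4 (-0.59, SE 0.26), and differed by -1.02 and -0.17 without the first and the second olive oil array.

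For both core enzymes shown here, the arrays of 1 diet lay farther apart than the means of the diets. Fasn, the fatty acid synthase, and Acly, which supplies its acetyl-CoA, were picked after their values were seen. Fasn read 1841.8 and 579.6 with coconut fat and 1386.1 and 3788.4 with olive oil, so the diets overlapped (log2 difference -1.15, SE 1.16). Acly read 1842.8 and 652.8 against 1637.8 and 4488.3, also with overlap (-1.3, SE 0.68). Pnpla3, a lipase that responds to feeding and carbohydrate, read 417.5 and 13.2 with coconut fat and 373.4 and 2093.2 with olive oil (-3.42, SE 1.39), and its other 2 probe sets gave -3.14 and -1.86. In each of the 3 genes the second olive oil array was the highest and the second coconut fat array the lowest of the 4.

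Measured against the olive oil mean, the median over the fatty acid synthesis genes was -0.33 and 0.33 on the olive oil arrays and -0.56 and -1.45 on the coconut fat arrays. It was -1.0 and -1.01 with lard, -1.87 and -1.17 with fish oil and -2.42 and -0.78 with chow. The chow arrays thus lay farther apart than coconut fat and olive oil did. The median difference between coconut fat and olive oil was -0.5 without the second olive oil array, with 12 of 13 genes below 0, and -0.56 without the second coconut fat array, with 11 of 13 below 0. Without the first olive oil or the first coconut fat array it was -1.34 and -1.45. Beside chow, the list's median difference was 0.58 with coconut fat and 1.61 with olive oil, from the same chow arrays.

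**Figure D3:**
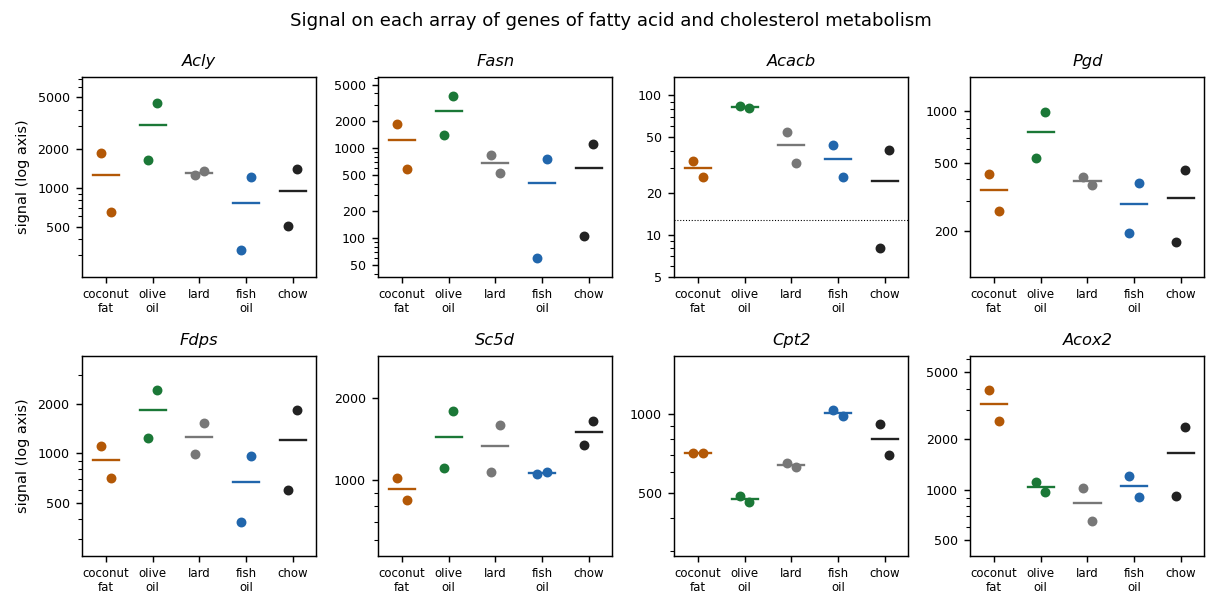
Signal (log axis) on each of the 10 arrays for 8 genes of fatty acid and cholesterol metabolism, by diet, with a bar at the mean of each diet and a dotted line at the background bound of 12.8. For Acly and Fasn the coconut fat and olive oil points overlap, while for Acacb, Cpt2 and Acox2 they do not.

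Cholesterol synthesis lay on the same side. Of 17 measured genes, 15 were lower with coconut fat, the median difference was -0.6, 1 had an unadjusted p under 0.05 and 9 showed no overlap downward against 1 upward. Sc5d, a late sterol desaturase, read 1018.0 and 843.8 with coconut fat and 1104.1 and 1791.5 with olive oil (log2 difference -0.6, SE 0.24, other probe sets -0.36 and -0.42). Fdps, picked after its values were seen, read 1115.7 and 704.7 against 1237.6 and 2444.5 (-0.97, SE 0.54). The list's median moved to -0.31 without the second olive oil array and to -0.36 without the second coconut fat array. On the chow arrays it stood at -0.75 and 0.36 relative to the olive oil mean, a wider gap than between coconut fat (-0.36 and -0.79) and olive oil (-0.33 and 0.33). Among desaturases and elongases, which introduce double bonds and lengthen fatty acids, 11 of 13 lay below 0 with a median of -0.17 and 0 had an unadjusted p under 0.05. Elovl6, which lengthens palmitate, read 144.9 and 89.5 with coconut fat and 124.2 and 499.1 with olive oil, with overlap (-1.11, SE 0.69).

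Mitochondrial fatty acid oxidation lay above 0. Of 20 measured genes 17 were higher with coconut fat, the median difference was 0.22, 6 had an unadjusted p under 0.05 and 8 showed no overlap upward, against 0 downward. Cpt2, the inner carnitine palmitoyltransferase, read 711.3 on both coconut fat arrays and 486.9 and 462.0 on the olive oil arrays (log2 difference 0.58, SE 0.15, limma adjusted p = 0.525). Acadm, the medium-chain acyl-CoA dehydrogenase, read 4136.8 and 4451.4 against 3315.5 and 2883.3 (0.47, SE 0.12, limma adjusted p = 0.525). Eci1, which moves double bonds so that unsaturated chains can be oxidised, read 2645.3 and 2867.9 against 1801.4 and 1152.0 (0.93, SE 0.3). For Cpt2 and Acadm the coconut fat arrays stood near chow, at 913.8 and 699.3 for Cpt2 and 4061.4 and 4214.9 for Acadm. With quantile normalization 15 of the 20 lay above 0, and without the second olive oil array 13 did, with a median of 0.07.

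In peroxisomes 12 of 16 measured genes of fatty acid oxidation were higher, with a median of 0.14 and 3 at an unadjusted p under 0.05. Acox2, the oxidase for branched chains and bile acid precursors, read 3908.9 and 2552.6 with coconut fat and 1120.5 and 964.8 with olive oil (log2 difference 1.6, SE 0.38, limma adjusted p = 0.469). Both coconut fat arrays were above the 8 others for Acox2, of which the highest was a chow array at 2381.1. Ehhadh, the bifunctional enzyme, read 3318.5 and 2767.0 against 2237.9 and 1735.6 (0.62, SE 0.16). Hsd3b7, an enzyme of bile acid synthesis from the list of 18 bile acid genes (median 0.07), read 1066.5 and 857.7 with coconut fat and 419.3 and 342.7 with olive oil (1.33, SE 0.32, limma adjusted p = 0.469).

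The remaining PPAR-alpha targets had no common direction, with 9 of 18 on either side of 0 and a median of 0.04. Cyp4a3, which hydroxylates fatty acids at the omega end, read 3304.9 and 3994.4 with coconut fat and 2628.8 and 2542.8 with olive oil (log2 difference 0.49), without overlap. Its relative Cyp4a1 read 3657.5 and 2361.5 against 2371.5 and 1266.3 (0.76), with overlap and a range of 0.31 to 1.21 when 1 of the 4 arrays was left out. Vnn1, a pantetheinase, read 235.6 and 478.6 against 271.8 and 90.7 (1.08), also with overlap and a range of 0.3 to 1.85. Pdk4 lay on the other side at -1.32. Ppara itself was dim on the olive oil arrays, at 11.4 and 17.9, and read 56.6 and 54.7 with coconut fat (log2 difference 1.75, SE 0.79), but the chow arrays spanned 41.6 to 3.2. Ppargc1a, a coactivator that fasting induces, read 17.5 and 2.5 with coconut fat and 63.7 and 32.7 with olive oil (-2.19, SE 0.63). The reading of 2.5 lay under the background bound, so the size of this difference is uncertain. The difference ranged from -3.13 to -1.25 when 1 of the 4 arrays was left out. The other probe sets of Ppargc1a were too dim to be tested. Cd36, a fatty acid uptake protein, read 259.1 and 118.3 with coconut fat, 609.6 and 369.1 with olive oil and 119.7 and 204.8 with chow (log2 difference to olive oil -1.42, SE 0.43).

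**Figure D4:**
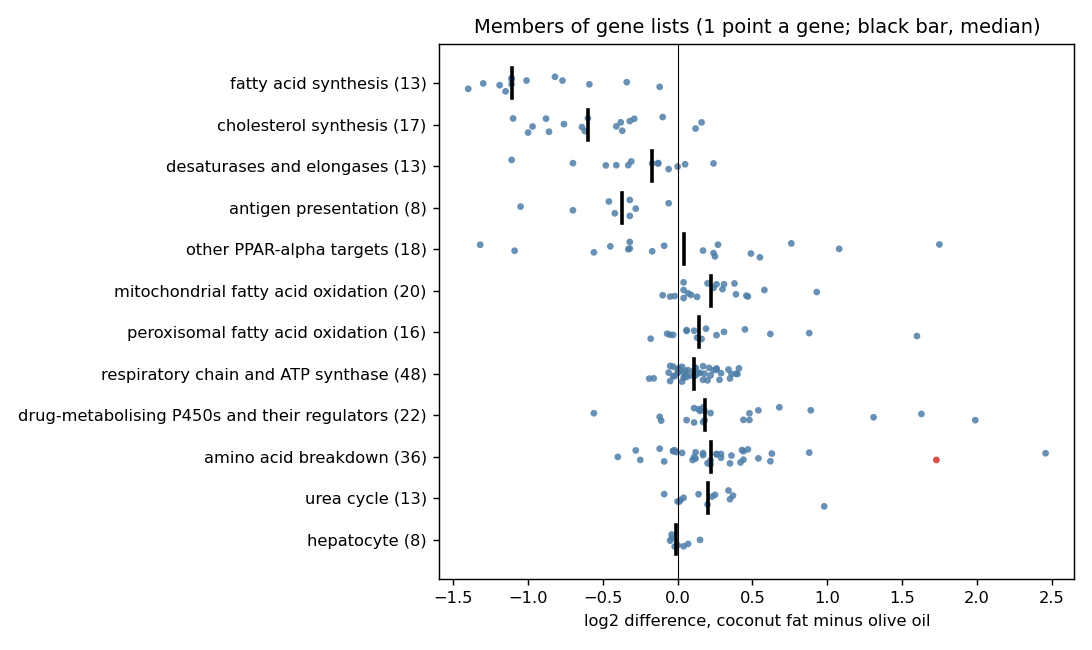
Log2 difference between coconut fat and olive oil for each measured gene of 12 lists, with the number of genes in brackets and a black bar at the median. The 13 fatty acid synthesis genes all lie below 0, the red point is Gpt, the member that passed at an adjusted p of 0.05, and the hepatocyte markers lie close to 0.

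Amino acid breakdown, 1 of the lists that hold Gpt, had 27 of 36 measured genes above 0 and a median of 0.22. At an unadjusted p under 0.05, 9 were higher and 1 lower, and 20 showed no overlap upward against 2 downward. Ivd, of leucine breakdown, read 858.7 and 939.7 with coconut fat and 527.6 and 636.3 with olive oil (log2 difference 0.63, SE 0.19). Gpt2, the mitochondrial alanine aminotransferase, read 571.0 and 653.8 against 413.8 and 262.4 (0.88, SE 0.28), and its second probe set gave 0.33. On the coconut fat arrays the list's median stood 0.29 and 0.19 above the olive oil mean, and the chow arrays stood at 0.19 and 0.39. The urea cycle and its transporters had 12 of 13 genes above 0 and a median of 0.2, but 8 of 13 with quantile normalization. Slc25a15, the mitochondrial ornithine carrier, differed by 0.37. Gpt is also in the list of gluconeogenesis and glycogen, of which 6 of 17 measured genes lay above 0, with a median of -0.08.

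Drug-metabolising P450s and their regulators had 19 of 22 measured genes above 0, a median of 0.18, 6 at an unadjusted p under 0.05, all higher, and 11 without overlap upward against 1 downward. Besides Nr1i3 and Cyp3a9, Cyp3a2 read 5748.5 and 6779.5 with coconut fat and 3338.2 and 3416.7 with olive oil (log2 difference 0.89, SE 0.2, limma adjusted p = 0.464). Cyp2e1, the ethanol- and ketone-oxidising P450, read 7017.1 and 7119.8 against 3830.1 and 5044.9 (0.68, SE 0.16, limma adjusted p = 0.464). Both genes read close to chow with coconut fat, with differences to chow of 0.11 and -0.02. Related P450 genes are alike in sequence, and probe sets may pick up more than 1 of them. Respiratory chain and ATP synthase genes had 40 of 48 above 0 with a median of 0.11. That count was 28 of 48 with quantile normalization and 26 of 48 without the first coconut fat array.

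**Figure D5:**
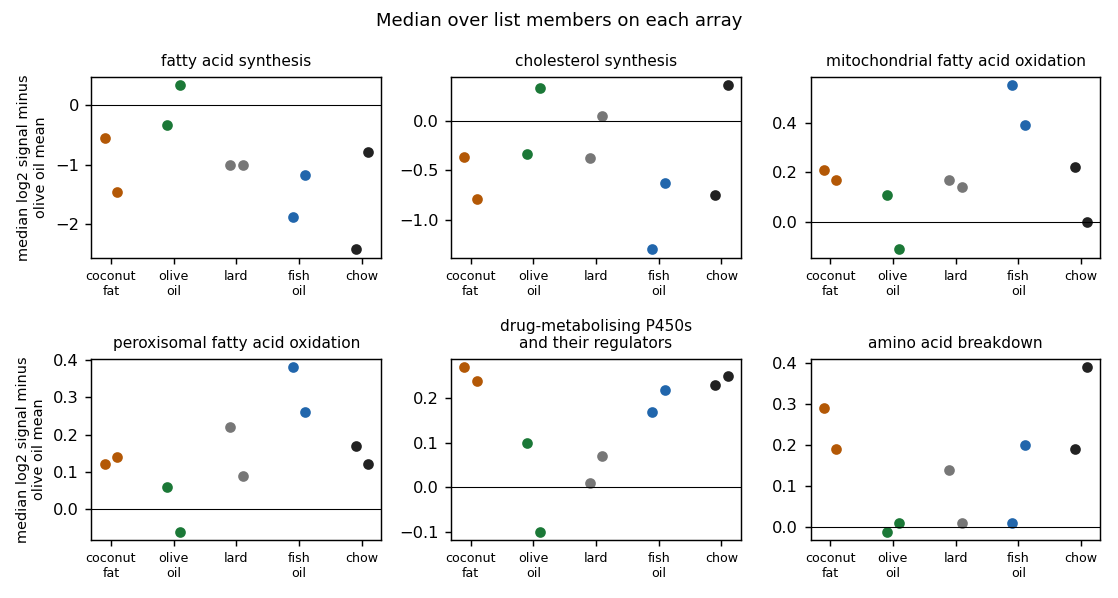
Median over the members of 6 lists on each array, as log2 signal minus the mean of the olive oil arrays, with 1 point an array and the diets on the horizontal axis. The olive oil points lie above the coconut fat points for fatty acid synthesis and below them for fatty acid oxidation, P450s and amino acid breakdown, and the chow points of fatty acid and cholesterol synthesis lie far apart.

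Markers of other cells were read beside these lists, since in a piece of tissue fewer cells of a type and less RNA per cell cannot be told apart. All 8 genes of antigen presentation were lower with coconut fat, with a median of -0.37 and 2 at an unadjusted p under 0.05. Without the second coconut fat array 6 of 8 were lower, with a median of -0.27. Relative to the olive oil mean, the median of these genes was -0.27 and -0.67 on the coconut fat arrays. It was -0.39 and -0.6 with lard, -0.54 and -0.76 with fish oil and 0.04 and 0.53 with chow, so low values were not particular to coconut fat. RT1-Da, a class II chain, read 452.9 and 441.3 with coconut fat and 729.9 and 723.2 with olive oil (log2 difference -0.7, SE 0.22, limma adjusted p = 0.687), and Cd74, the class II chaperone, differed by -0.42. The summed signal of that list was 1991 and 1601 with coconut fat and 2560 and 2499 with olive oil. Kupffer cell and macrophage markers had 5 of 11 above 0, a median of -0.08 and sums of 4359 and 4126 against 5142 and 4069. Adgre1, a macrophage surface receptor, differed by -0.68. Lymphocyte markers had 2 of 9 above 0, a median of -0.29 and sums of 308 and 314 against 384 and 391, with Cd3d, Cd3g, Cd8a, Cd8b and Cd79b too dim to be tested. Of the adipocyte markers, Cfd, Cidec and Car3 were tested, all 3 above 0 with a median of 0.19, and their summed signal was 4548 and 3892 with coconut fat and 1995 and 7153 with olive oil, most of it from Car3 (3805.4 and 3246.7 against 1451.7 and 6501.3). Adipoq, Lep, Plin1 and Fabp4 were too dim to be tested, so this sum, mostly of Car3, cannot be read as an amount of adipocytes. Also too dim were 6 of 8 skeletal muscle and 6 of 8 pancreatic acinar markers. The part of all these cell types in the other differences was not tested.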

How the data were processed

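Rat liver RNA was measured on Affymetrix arrays, 2 per diet. The authors deposited a linear MAS5 signal intensity for each probe set (tool named in the submitters' processing notes, version not given in the sources used here). All arrays shared a 2% trimmed mean, so none was rescaled. Of 31099 probe sets, 57 controls were removed. The rest were turned into log2(signal + 3.1), 3.1 being the 10th percentile of the table. The dimmest 40% by mean log2 value (12417, below about 17.8 in signal) were left out. Gene names came from the platform annotation: 20826 probe sets had 1 symbol, 436 several and 9780 none.

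Limma 3.58.1 (R 4.3.3) fitted a mean for each diet, using all 10 arrays (eBayes with an intensity trend, 5 residual and 5.96 prior degrees of freedom), and p-values were adjusted by Benjamini-Hochberg over all 18625 probe sets of a comparison. The code was tested on simulated data. Named genes were those with an adjusted p under 0.05, filled up to 12 a direction by the smallest p among genes without overlap of the arrays and with a mean signal above 12.8 in either diet. Up to 4 members with an unadjusted p under 0.05 were added from each of 30 pathway and 12 marker lists, or else the member with the smallest p. Exceptions are said. Of 811 list entries, 737 were on the annotation. The members and lists were chosen with earlier results of these data known. Arrays with the same replicate number shared little deviation: these deviations correlated at -0.033 to 0.076, and at -0.016 for both diets compared. Such values cannot show whether same-numbered arrays were handled together. Alternatives were other scalings, offsets, filters and trends, a threshold of 0.1, the number as a block, the compared diets alone and each array left out.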

Additional observations from a re-analysis of the deposited data

How the results depend on the processing

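For coconut fat against olive oil, 2 probe sets were called with quantile normalization, a common 75th percentile, a floor and the replicate number as a block. Gpt alone (1) was called with an offset at the 25th percentile or no dim filter, 1 (Zfp354a) with only the diets compared, and 0 with no intensity trend. Leaving out single arrays gave 0 to 2: 0 without either lard, coconut fat or chow array, and 2 other probe sets (Gstm2 and 1 with several symbols), neither Gpt nor Plcb3, without the first olive oil array. At an unadjusted p under 0.05 there were 1940 with no dim filter and 987 to 1408 without single arrays. Coconut fat against chow gave 5 with only the diets compared and 0 to 3 without single arrays. Olive oil against chow gave 11 with no dim filter, 16 with 60% left out, 0 with no trend, 15 with a robust trend, 21 at an adjusted p of 0.1 and 3 to 23 without single arrays.

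Of 1969 values of 99 named probe sets under 20 alternatives, 1937 kept direction and side of the threshold, 23 lost the call and 4 gained it. Most of these values belong to genes that were never called. All 23 losses were of Gpt and Plcb3, which kept the call in 11 and 6 of the 20 alternatives. The 5 that turned were marker genes without 1 olive oil array: with single arrays left out, Epcam ranged from -0.74 to 0.07, Slc4a1 from -0.44 to 1.21, Ckm from -0.19 to 0.33, S100a9 from -1.37 to 0.22 and Prss1 from -0.18 to 0.79. The causes were not tested. The replicate block changed no call of a named gene, with 2 called as without it. Detection calls were not used here, so signals under 12.8 are bounds.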

Other observations

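Other genes of the liver's metabolism and signalling differed between coconut fat and olive oil without passing the adjusted test. Igfbp2, a binding protein of insulin-like growth factors that fasting raises, read 41.4 and 45.9 with coconut fat and 16.8 and 24.1 with olive oil (log2 difference 1.01, SE 0.3). Irs3, of insulin signalling, read 93.0 and 37.0 with coconut fat and 107.8 and 202.4 with olive oil (-1.28, SE 0.47). It differed by -1.91 and -0.65 without the first and the second coconut fat array. Pik3r1, of the same list, differed by -1.78 with a wide SE of 0.79, and its lard arrays alone read 220.4 and 39.1. Of the 21 measured genes of insulin and IGF signalling, 12 lay above 0, with a median of 0.04. Acot12, a cytosolic acetyl-CoA thioesterase, read 1066.3 and 1019.5 against 682.2 and 532.0 (0.79, SE 0.22). Gpam, which starts triglyceride synthesis, read 237.9 and 222.5 against 273.5 and 679.0 (-0.9, SE 0.36). It differed by -1.55 and -0.25 without the first and the second olive oil array, and by -1.05 on a second probe set. Apob, the structural protein of VLDL, differed by -0.35, and a dimmer probe set gave 0.14.

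The conjugation enzymes Sult2a6 and Gstm2 differed in opposite directions, Sult2a6 at 150.1 and 265.6 with coconut fat and 703.9 and 2450.2 with olive oil (-2.7, SE 0.66), Gstm2 at 3240.7 and 3481.6 against 2380.4 and 651.3 (1.43, SE 0.42). Gstm2 passed without the first olive oil array (2.36, limma adjusted p = 0.00225) and differed by 0.5 without the second. Stat3, the transcription factor of the acute phase, differed by -0.9 and -0.78 on its 2 probe sets, while Crp, an acute phase protein, differed by 0.26. The brighter Stat3 probe set read 355.8 and 191.8 with coconut fat, and differed by -1.34 and -0.45 without the first and the second of these arrays. Among genes that respond early to stimuli, 8 of 19 lay above 0 with a median of -0.13, and the 3 with an unadjusted p under 0.05 (Gadd45g, Zfp36 and Klf4) differed by 1.32, 0.77 and 1.29. Obp3, which is higher in male than in female rat liver, differed by 0.53. A probe set with no gene symbol in the annotation used, chosen for the smallest p among such probe sets, read 3361.3 and 3521.2 with coconut fat and 1180.8 and 1761.2 with olive oil (1.25, SE 0.18, limma adjusted p = 0.118), and 3311.0 and 3028.5 with chow. It passed with a robust trend and without the second olive oil array.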
